A study of Homo sapiens with 24 samples.

Results

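The androgen response of LNCaP prostate cancer cells that carried an empty vector was measured by RNA sequencing. LNCaP is an androgen-sensitive line from a lymph node metastasis of a prostate carcinoma. The comparison was chosen by its labels: 3 empty-vector libraries treated with R1881 were set against 3 empty-vector libraries treated with ethanol, the vehicle, which makes 6 of the 24 libraries and 2 of the 8 groups of the series. R1881 is a synthetic androgen, given here at 5 nM for 48 h. Cells were seeded at 300000 per well, transfected a day later, moved to androgen-deprived medium on the following day, and given R1881 or ethanol 1 day after that in fresh deprived medium. The replicates are labelled as biological triplicates and carry the sample numbers 1, 15 and 29 with vehicle and 2, 16 and 30 with R1881, the order in which their values are given throughout. Every cell in the comparison had been transfected and androgen-deprived, the vehicle arm included, and 1 cell line stands behind all 6 libraries. The other arms carried a construct named WDR77-peptide 3 in the same study, or small interfering RNAs in a second one.

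The androgen receptor is a nuclear receptor held in the cytoplasm by chaperones until it binds hormone, when it enters the nucleus, binds DNA and recruits coregulators at target genes. In the secretory luminal cells of the prostate it drives genes of secreted proteases such as KLK3, which encodes prostate-specific antigen, and many prostate cancers remain dependent on it. In LNCaP cells it is known to raise lipid synthesis and secretory genes, and the effect of androgen on proliferation of these cells depends on the dose.

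The 6 libraries held 16945017 to 24260446 counts assigned to genes, of which 5.43 to 6.30% came from the mitochondrial genome. Levels are given in CPM, counts scaled to a common library total, with TMM, a method that aligns libraries on the bulk of their genes, and differences as log2 fold changes of R1881 over vehicle with their standard error (±, 3 libraries a side). A gene is called higher or lower when edgeR's quasi-likelihood test gave a Benjamini-Hochberg adjusted p under 0.05 over all 17772 genes tested. The 12 luminal prostate markers summed to 7897 to 8070 CPM with vehicle and 22180 to 23900 CPM with R1881, and all 12 were detected. Markers of 5 other cell types, basal, stromal, endothelial, immune and neuroendocrine, summed to at most 38.3 CPM each in every library, with KRT5, COL1A2, FAP, DES, CDH5, CD3E, TYROBP, INSM1 and NEUROD1 at 0 counts in all 6. In bulk RNA, fewer cells of a type and less of the RNA per cell cannot be told apart.

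Expression differed with R1881 for many of the genes tested. Of 17772 genes, 9130 were called (51.4%), 4432 higher (24.9%) and 4698 lower (26.4%). Most changes were modest: 1262 genes (7.1%) rose by 2-fold or more and 1390 (7.82%) fell by 2-fold or more, while 209 rose and 120 fell by 8-fold or more, and 28 and 10 by 64-fold or more. The median over all genes tested was -0.04 on the log2 scale, and 90% lay between -1.40 and 1.36. In 8668 of the called genes (94.9%) no vehicle library overlapped an R1881 library. For 8642 genes no call was made, and for 1737 of all genes tested (9.77%) the 95% interval of the fold change lay within 0.25 of 0 on the log2 scale. The balance of rises and falls depended on scaling: on plain library totals without TMM the median moved by -0.17 and 3091 genes were higher and 6930 lower.

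**Figure D1:**
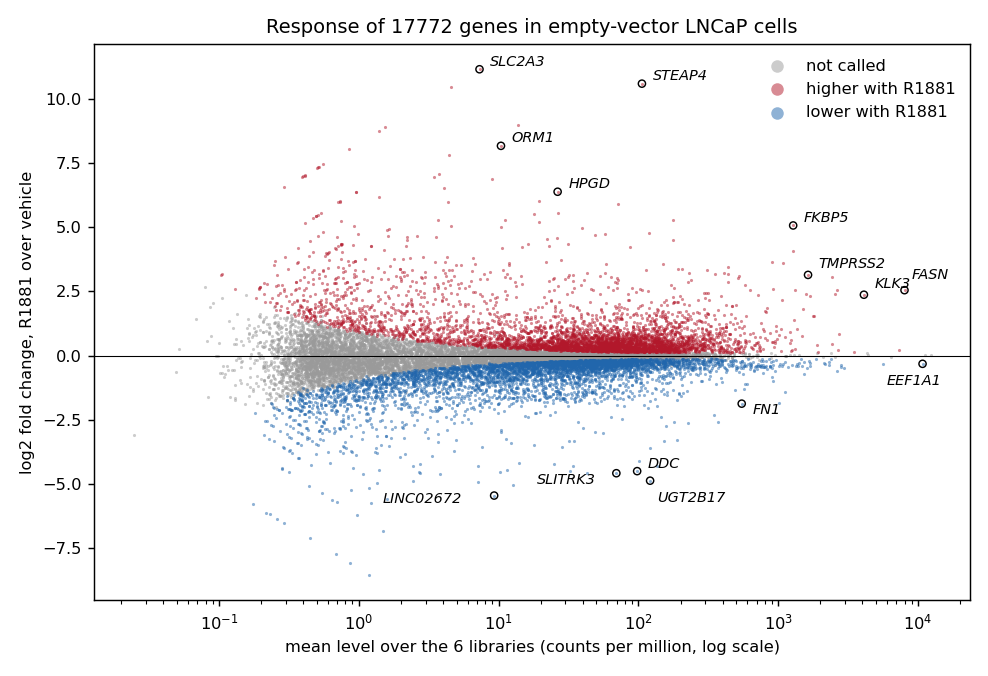
Each point is 1 of 17772 genes, with its mean level over the 6 libraries (CPM, log scale) on the x axis and its log2 fold change of R1881 over vehicle on the y axis; colours mark the calls and circles mark 14 genes named in the text. Among the circled genes STEAP4, SLC2A3 and ORM1 stand highest, UGT2B17, SLITRK3 and LINC02672 lie below -4, and abundant genes such as KLK3 and FASN lie at 2.37 and 2.55.

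The share of genes called rose with level. Among genes under 1 CPM, 10.2% were higher and 12% lower, against 49.7% and 25.3% among the 2177 genes of 100 to 500 CPM. Genes of 5 to 20 CPM leaned the other way, with 19.4% higher and 34.4% lower. The gene lists below are set against all genes tested, not against genes of like level. By annotated type, 29.4% of protein-coding genes were higher and 29.8% lower, while long intergenic RNAs leaned down (10.6% and 22.9%) and sense-intronic transcripts leaned up (17.4% and 5.79%).

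The response also changed what the messenger RNA pool was made of. Genes that rose by 2-fold or more supplied 4.79 ± 0.045% (SD, n = 3) of all counts with vehicle and 15.57 ± 0.089% with R1881. Genes that fell by 2-fold or more went from 4.13 ± 0.024% to 1.27 ± 0.07%. A small set carried much of the gain in shares of library totals without TMM, summed over the genes whose share rose. Of this sum 10 genes held 20.8% and 110 genes held 50%. The largest increases in CPM included those of FASN, the fatty acid synthase, KLK3, the keratin gene KRT8 and the hydrolase gene ABHD2. The largest losses were of EEF1A1 and EEF2, the elongation factors of translation, followed by AIDA, RPS2 and CALD1. FASN reached 13370, 12670 and 14910 CPM from 2309, 2132 and 2557 CPM. EEF1A1 went from 12010, 12160 and 11680 CPM to 9670, 9725 and 9299 CPM, a change of -0.32 ± 0.045, with no overlap.

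Known androgen-responsive genes rose. KLK3 rose from 1286, 1305 and 1389 CPM to 6431, 6945 and 7221 CPM (2.37 ± 0.050, adjusted p = 7.88e-34). Its neighbour KLK2, a related secreted protease, went from 79.7, 87.4 and 90.3 CPM to 733, 787 and 836 CPM (3.19 ± 0.058). TMPRSS2, a membrane serine protease whose promoter drives ETS fusions in many prostate tumours, rose from 325, 329 and 340.3 CPM to 2882, 2870 and 3043 CPM (3.15 ± 0.049). For these genes the spread within a group was a small fraction of the gap between groups. FKBP5, a cochaperone of steroid receptors, rose most among these targets, from 70.05, 76.7 and 74.2 CPM to 2520, 2494 and 2429 CPM (5.07 ± 0.057, adjusted p = 6.40e-43). WDR77, the methylosome subunit that gives the other construct its name, was not called, at 55.1, 58.8 and 63.6 CPM and 59.4, 58.8 and 64 CPM with a 95% interval of -0.10 to 0.18.

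**Figure D2:**
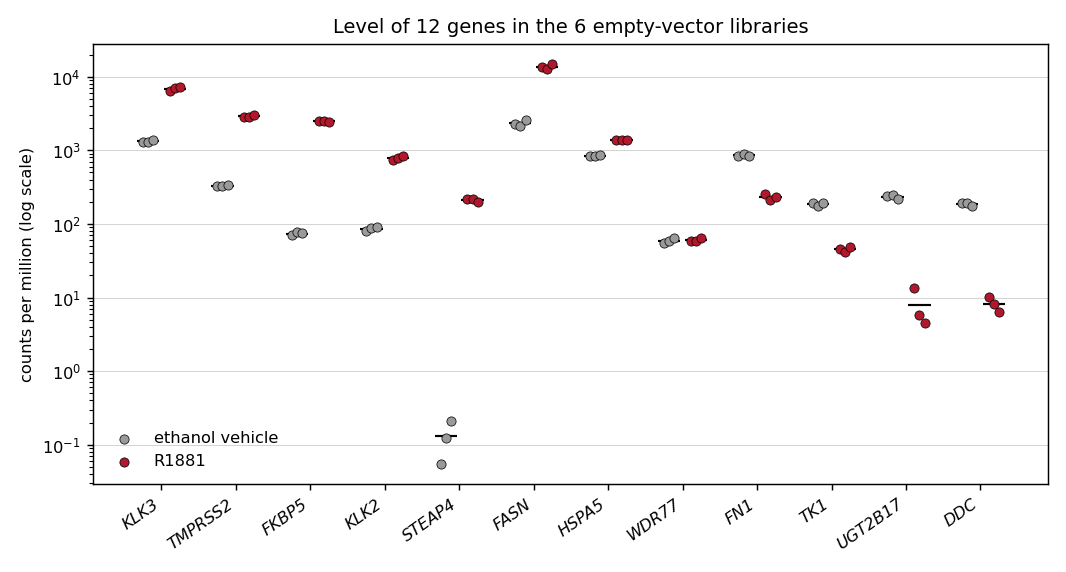
Level of 12 genes (CPM, log scale) in the 3 vehicle libraries (grey) and the 3 R1881 libraries (red), each point 1 library and each line a group mean. All genes but WDR77 separate into non-overlapping groups, STEAP4 moves from under 1 CPM to 200.1 CPM or more, and the R1881 points of UGT2B17 and DDC spread more than those of the genes that rose.

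The promoter of KLK3 is shown since it is the best known androgen-responsive promoter and carries a match to the androgen receptor's short motif AGAACA, in capitals. The run is the 250 bases before the start of KLK3 on the plus strand, chr19:50854665-50854914, from RefSeq on GRCh38.p14, and the match begins 170 bases before the start.
KLK3: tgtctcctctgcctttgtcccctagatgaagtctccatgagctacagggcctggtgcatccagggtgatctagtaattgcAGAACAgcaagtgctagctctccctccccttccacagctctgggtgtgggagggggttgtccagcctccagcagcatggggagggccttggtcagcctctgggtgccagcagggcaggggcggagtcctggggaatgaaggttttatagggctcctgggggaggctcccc
AGAACA is common. Over windows from 250 bases before to 50 bases after a start, searched on both strands, it was found in 14.8% of all 35116 RefSeq promoters, in 12% of those of genes that rose by 2-fold or more, in 17% of those that rose by 8-fold or more, in 11.5% of those that fell by 2-fold or more, in 15.2% of those that fell by 8-fold or more, in 11% of those not called and in 10.1% of those of all genes tested. These shares are descriptions of letters near a start, and androgen receptor sites are often far from promoters.

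Some genes went from no or almost no reads to clear expression. SLC2A3, a glucose transporter, had 0 counts in all vehicle libraries and 14.9, 14.5 and 14.3 CPM with R1881, at least 299-fold higher when set against a floor of 3 counts over the vehicle group. STEAP4, a metalloreductase of the membrane, went from 0.0547, 0.122 and 0.213 CPM to 216, 218 and 200.1 CPM (10.6 ± 0.14), the largest rise among genes with any vehicle reads and at least 5 CPM. CCDC141, a coiled-coil protein gene, had 3 counts with vehicle and 1424 with R1881, a ratio of 568 with a counting interval of 194 to 2760. Both acute-phase orosomucoid genes rose, ORM1 to 18.5, 19.4 and 24.2 CPM and ORM2 to 17.8, 19.9 and 16 CPM, though their near-identical sequences may share reads. HPGD, which inactivates prostaglandins, rose from 0.438, 0.612 and 0.799 CPM to 51.8, 52.8 and 51.9 CPM (6.39 ± 0.16). PGC, the gene of pepsinogen C, rose from 0.438, 0.979 and 0.213 CPM to 37.2, 39.3 and 39 CPM, and NBL1, a secreted BMP antagonist, from 0.109, 0.0816 and 0.0532 CPM to 6.97, 6.92 and 10.4 CPM. SLC38A4, an amino acid transporter, had 2 counts with vehicle and a ratio of 272 with an interval of 75 to 2260. CACNG4, a calcium channel subunit, had 3 counts and a ratio of 149 (50.7 to 727). The noncoding RNA RP1-288H2.2 had 0 counts with vehicle and was at least 186-fold higher. It lies on chromosome 12 within the span of the pseudogene OR7E47P. OR7E47P had 3 counts and a ratio of 142 (48.1 to 690), with 57.2% of its exon bases shared with another annotated gene. Leaving out vehicle library 15 or 1 changed the fitted folds of CCDC141, ORM1, ORM2, OR7E47P, CACNG4, SLC38A4 and PGC by more than 1.5 times, genes with 2 to 36 vehicle counts in all. CCDC141 was 12.1 without library 1 and 8.31 without library 15, ORM1 9.47 and 7.5, and ORM2 11.48 and 6.17. Without library 15 OR7E47P was 10.05, CACNG4 7.79, SLC38A4 7.19 and PGC 6.87, and all 7 genes were still called.

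The strongest falls were as clear. UGT2B17, which conjugates androgens with glucuronic acid for export, went from 239, 245 and 218 CPM to 13.4, 5.87 and 4.46 CPM (-4.88 ± 0.26, adjusted p = 2.46e-07). Its close relative UGT2B15 fell from 62.6, 63.3 and 61 CPM to 4.41, 2.06 and 1.64 CPM (-4.51 ± 0.15), with reads that the pair may share. DDC, aromatic amino acid decarboxylase, fell from 195, 192 and 175 CPM to 10.2, 8.08 and 6.29 CPM (-4.5 ± 0.096). SLITRK3, a synaptic adhesion gene, fell from 129.7, 138 and 132 CPM to 9.4, 4.49 and 2.56 CPM (-4.59 ± 0.25), PLA2G2A, a secreted phospholipase, from 82.5, 84.8 and 79.3 CPM to 4.82, 2.22 and 3.28 CPM, and the peptide hormone gene NTS from 18.8, 20.6 and 19.2 CPM to 1.1, 0.581 and 0.852 CPM. SI, sucrase-isomaltase, fell from 23.7, 26.6 and 23.8 CPM to 1.28, 0.264 and 0.721 CPM (-5.05 ± 0.25). CTNNA3, a catenin, GRIK1, a glutamate receptor, PLD1, a phospholipase, and the noncoding RNAs LINC02672 and RP11-725D20.1 completed the 12 largest at 5 CPM or more with vehicle, their values lying between -4.55 and -5.46. GRIK1 was -5.26 without R1881 library 16.

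Among the genes that fell most, library 2 was most often the highest of the R1881 libraries. Of 37 genes at 5 CPM or more that fell by 8-fold or more, library 2 was the highest R1881 library in 33, library 16 in 4 and library 30 in 0, with median levels of 7.81%, 6.02% and 4.29% of the vehicle mean. No such order appeared in the 95 genes that rose by 8-fold or more, where the lowest library was 2 in 33, 16 in 27 and 30 in 35. Without library 2, LINC02672 went from -5.46 to -6.88, SI from -5.05 to -5.68, SLITRK3 from -4.59 to -5.18, PLD1 from -4.55 to -7.16 and PGR, the progesterone receptor gene, from -3.24 to -4.85. Over all genes tested, 8611 were called without library 2, 4399 higher and 4212 lower. With each of the 6 libraries left out in turn the count of calls ranged from 8344 to 8798. Of 53 ribosomal protein genes, 49 fell with all libraries (median -0.387) and 43 without library 2 (median -0.295).

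Genes of prostate secretion and identity rose as groups, with some opposed members. Of 14 tested genes of secreted luminal proteins, 12 rose and 1 fell, with a median of 1.36 against -0.04 over all genes tested, while 6 further members of the list did not pass the filter on low counts. Beside the kallikreins these were AZGP1, a zinc-binding secreted glycoprotein, from 15.7, 17.8 and 15.4 CPM to 105, 124 and 131 CPM (2.87 ± 0.082), and AGR2, a disulfide isomerase of secretory cells, from 7.55, 9.06 and 4.95 CPM to 38.8, 47.7 and 41 CPM (2.55 ± 0.15). TFF3, a trefoil peptide, fell from 3.99, 5.39 and 3.73 CPM to 1.86, 1.9 and 2.88 CPM (-1.0 ± 0.22). Of 18 genes of prostate membrane proteins, 13 rose and 2 fell (median 0.64). SLC45A3, also known as prostein, rose from 133, 135 and 133 CPM to 1558, 1641 and 1792 CPM (3.64 ± 0.061), PMEPA1, a brake on TGF-beta signalling, by 3.33 ± 0.065, and the cold-sensing channel TRPM8 by 2.64 ± 0.094. FOLH1, which encodes prostate-specific membrane antigen, went against the list, from 1870, 1969 and 1829 CPM to 1175, 1160 and 1108 CPM (-0.72 ± 0.047), as did the zinc transporter SLC30A4 (-0.48 ± 0.049).

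Of 22 lineage transcription factors, 15 rose and 6 fell (median 0.54). HES6, of the Hairy and Enhancer of split family, rose from 52.8, 48.9 and 61.2 CPM to 339, 409 and 445 CPM (2.88 ± 0.12), and SPDEF, an ETS factor of secretory epithelium, from 95.5, 88.5 and 109.6 CPM to 492, 550.4 and 562 CPM (2.45 ± 0.068). KLF5 rose by 2.12 ± 0.16, ZBTB10 by 1.79 ± 0.058 and CREB3L1, at under 2 CPM in every library, by 3.32 ± 0.53. The pioneer factor FOXA1 moved little, from 526, 523 and 549 CPM to 586, 573 and 605 CPM (0.14 ± 0.048), and its difference turned to -0.03 on library totals without TMM. HOXB13, the homeobox factor of the prostate, fell slightly (-0.23 ± 0.048), and GATA2 fell from 403, 406 and 413 CPM to 222, 229 and 261 CPM (-0.78 ± 0.061). Steroid receptor genes fell too: the progesterone receptor gene PGR went from 1.8, 1.96 and 1.92 CPM to 0.464, 0 and 0.131 CPM (-2.61 without R1881 library 16) and the glucocorticoid receptor gene NR3C1 from 1.86, 1.22 and 1.81 CPM to 0.174, 0.634 and 0.393 CPM (-1.98 ± 0.45). TRPS1, a GATA-type repressor, fell as well (-1.4 ± 0.090). Among 26 androgen receptor coregulators 7 rose and 15 fell (median -0.18): PIAS1 rose by 1.1 ± 0.066 and NCOR1, a corepressor, by 0.5 ± 0.049, while EZH2, a histone methyltransferase, fell (-0.95 ± 0.077) as did SMARCD3, of the SWI/SNF complex (-1.39 ± 0.13).

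Of 17 genes that androgens share with glucocorticoids, 14 rose and 2 fell (median 1.38). After FKBP5 the largest were NDRG1, a stress and differentiation gene, from 132, 149.9 and 143 CPM to 2362, 2317 and 2485 CPM (4.08 ± 0.063), and ERRFI1, an inhibitor of EGFR, from 38.4, 34 and 34.5 CPM to 389.6, 361 and 369 CPM (3.39 ± 0.062). Of 18 tested genes of steroid metabolism 7 rose and 5 fell, or 7 and 8 without TMM. The UGT2B family was split: UGT2B28 rose from 1.97, 2.04 and 1.33 CPM to 39.9, 47.3 and 39.8 CPM (4.55 ± 0.15) and UGT2B11 from 6.62, 8.12 and 5.59 CPM to 62.9, 63.2 and 56.6 CPM (3.15 ± 0.11), while UGT2B15 and UGT2B17, named above, fell. STS, steroid sulfatase, rose by 0.93 ± 0.085.

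Lipid synthesis rose at most of its steps. Of 20 genes of cholesterol synthesis, 17 rose and 1 fell, with a median of 0.90. HMGCS1, which makes the precursor HMG-CoA, went from 76.8, 93.2 and 83.9 CPM to 339.9, 365 and 317 CPM (2.01 ± 0.084), and FDFT1, squalene synthase, from 206, 203 and 198 CPM to 765, 807 and 795 CPM (1.96 ± 0.052). No vehicle library overlapped an R1881 library in either gene. TM7SF2, a sterol reductase, was the member that fell (-0.41 ± 0.056). The sterol response element, searched as TCACNCCAC with N any base, was found in 0 of 20 promoter windows of the cholesterol synthesis list. It was found in 1 of 22 windows of the sterol control and uptake list (4.55%) and in 1.13% of all windows. Among 20 genes of sterol control and uptake, 12 rose and 4 fell, or 12 and 7 without TMM. INSIG1, which holds the sterol sensor in the endoplasmic reticulum, rose from 104, 98.8 and 109 CPM to 494, 485 and 501 CPM (2.25 ± 0.054), and the lipoprotein receptor gene VLDLR rose with it (1.78 ± 0.079). The exporter ABCA1 fell from 4.92, 4.82 and 4.31 CPM to 0.058, 0.475 and 0.131 CPM (-4.3 ± 0.36, and -5.57 without R1881 library 16), with ABCG1, another exporter, at -0.81 ± 0.10 and INSIG2 at -0.62 ± 0.074.

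Fatty acid synthesis had 15 of 21 members higher and 2 lower (median 1.03). ACSL3, which activates fatty acids, rose from 159, 170.5 and 158 CPM to 2024, 2043 and 1909 CPM (3.62 ± 0.053), the elongase ELOVL7 from 20.01, 22.1 and 19.6 CPM to 218, 206 and 196 CPM (3.32 ± 0.071), and ELOVL5 from 379.5, 384 and 389 CPM to 2278, 2306 and 2209 CPM (2.56 ± 0.050). FASN rose by 2.55 ± 0.074 and SCD, the desaturase that makes monounsaturated fat, by 1.54 ± 0.048. The elongase ELOVL6 and ACACB, the carboxylase that restrains fatty acid oxidation, fell (-0.59 ± 0.067 and -0.54 ± 0.10). Genes of lipid storage split 8 higher and 3 lower of 17, led by LPIN1 (2.1 ± 0.055) with DGAT2 the largest fall (-1.08 ± 0.087). Fatty acid oxidation split 11 and 7 of 26, and 11 and 10 on totals without TMM.

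Every tested gene of 2 secretory lists rose. All 30 genes of the unfolded protein response list rose, with a median of 0.74, and all 44 genes of transport between endoplasmic reticulum and Golgi, with a median of 0.63, where 24.9% of all genes tested were higher. On totals without TMM, 26 of the 30 and 38 of the 44 were higher and none was lower. The largest in the first list were EDEM3, which trims mannose from misfolded glycoproteins, from 59.3, 58.6 and 57.9 CPM to 248, 256 and 233 CPM (2.07 ± 0.057), the stress sensor ERN1, from 46.5, 41.6 and 41.3 CPM to 166, 166 and 169 CPM (1.96 ± 0.066), and the cochaperone DNAJB9, from 15.2, 15.5 and 11.7 CPM to 52.5, 56.6 and 51.1 CPM (1.91 ± 0.094). HSPA5, the main chaperone of the compartment, rose from 845, 840.2 and 854 CPM to 1396, 1387 and 1381 CPM (0.71 ± 0.047) and the transcription factor gene XBP1 from 156, 166 and 153 CPM to 240.4, 265 and 249.8 CPM (0.67 ± 0.056). ATF6, a stress sensor, had the smallest rise of the list (0.18 ± 0.062), which was not called without vehicle library 29 (0.15, adjusted p = 0.0585, edgeR). In the transport list KDELR3, a retrieval receptor, rose from 2.68, 2.29 and 2.24 CPM to 9.11, 8.77 and 11.3 CPM (2.02 ± 0.18), SEC24D, a cargo adaptor of COPII vesicles, from 34.5, 32.9 and 35.1 CPM to 122, 129 and 116 CPM (1.84 ± 0.065), and the cargo receptor LMAN1 from 203, 206 and 197 CPM to 462, 458 and 438 CPM (1.16 ± 0.049). Of 45 glycosylation genes 34 rose and 6 fell (median 0.55). ST6GALNAC1, which adds sialic acid to the Tn antigen, rose from 2.13, 2.73 and 2.4 CPM to 74.4, 73.5 and 80.4 CPM (4.95 ± 0.12), CSGALNACT1, which starts chondroitin chains, from 3.66, 4.12 and 2.88 CPM to 93.2, 99.8 and 88 CPM (4.7 ± 0.10), and UAP1, which makes the sugar donor UDP-GlcNAc, from 127, 133 and 130.1 CPM to 655, 672 and 615 CPM (2.32 ± 0.053). GALNT3 (-1.71 ± 0.070), MAN1A1 (-2.18 ± 0.24) and FUT8 (-1.12 ± 0.099) fell.

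The promoters of 1 gene from each list show motifs that were found in some windows of these lists.
HSPA5: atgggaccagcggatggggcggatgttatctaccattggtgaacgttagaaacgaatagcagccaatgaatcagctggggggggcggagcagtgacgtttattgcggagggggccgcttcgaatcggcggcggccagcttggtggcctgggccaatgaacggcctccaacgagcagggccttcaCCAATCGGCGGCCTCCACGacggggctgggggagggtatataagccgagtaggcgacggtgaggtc
KDELR3: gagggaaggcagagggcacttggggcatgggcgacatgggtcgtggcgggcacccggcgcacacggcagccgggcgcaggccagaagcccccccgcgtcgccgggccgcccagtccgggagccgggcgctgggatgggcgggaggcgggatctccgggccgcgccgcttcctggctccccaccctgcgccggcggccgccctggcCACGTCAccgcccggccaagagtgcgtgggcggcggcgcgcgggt
The first is chr9:125241344-125241593 on the minus strand, and its capitals mark the ER stress element, CCAAT and CCACG with any 9 bases between, from 66 to 48 bases before the start. The second is chr22:38467846-38468095 on the plus strand, and its capitals mark the core of the unfolded protein response element, TGACGTG, read on the other strand, from 45 to 39 bases before the start. Both are the 250 bases before the RefSeq start on GRCh38.p14. The ER stress element was found in 9 of 33 promoter windows of the unfolded protein response list (27.3%) and in 0.0769% of all windows, and in 0 of 55 windows of the transport list. The core TGACGTG was found in 16 of those 55 windows (29.1%) and in 1.97% of all windows. In the unfolded protein response list itself it was found in 2 of 33 windows (6.06%). CCAAT, which is part of the ER stress element, was found in 28 of 33 windows of the first list (84.8%) against 34.6% of all windows. Over windows of genes tested the shares were 0.116% for the ER stress element, 2.42% for TGACGTG and 34.9% for CCAAT.

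Cell division genes fell almost as completely as the secretory genes rose. Of 43 genes of DNA replication, 42 fell and 0 rose, with a median of -1.21, and of 43 genes of mitosis, 42 fell and 0 rose, with a median of -1.54, where 26.4% of all genes tested were lower. Thymidine kinase, TK1, fell from 191, 177 and 194 CPM to 45.5, 41.1 and 49 CPM (-2.06 ± 0.067, adjusted p = 1.01e-25). ORC6 and ORC1, subunits of the origin recognition complex, fell (-1.8 ± 0.099 and -1.75 ± 0.10), MCM10, needed to start replication, from 41.1, 44 and 40.7 CPM to 12.6, 13.7 and 11.8 CPM, and PCNA, the polymerase clamp, from 210.3, 221 and 211 CPM to 87.1, 86.5 and 85.8 CPM (-1.31 ± 0.059). The smallest fall of the list was of GINS3 (-0.43 ± 0.13), which was not called without vehicle library 15 (-0.27, adjusted p = 0.128, edgeR), and RNASEH2A, at about 1 CPM or less, was not called. In mitosis BIRC5, or survivin, fell from 123, 126 and 128 CPM to 31, 32.4 and 32.4 CPM (-1.98 ± 0.065), the cyclin gene CCNA2 from 72.9, 82.9 and 81.8 CPM to 25.3, 19.7 and 21.9 CPM (-1.83 ± 0.081), the centromeric histone gene CENPA from 14.6, 16.6 and 15.2 CPM to 4, 4.39 and 4.26 CPM, and the proliferation marker MKI67 from 226, 217 and 226 CPM to 93, 70.8 and 73.9 CPM (-1.49 ± 0.073). NUSAP1, under 1 CPM in every library and with 62.2% of its exon bases shared with another gene, was not called. In each gene given with its values here, the 3 R1881 libraries lay below the 3 vehicle libraries.

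Among 35 genes of G1 control 26 fell and 3 rose (median -0.49). E2F1, which activates S-phase genes, fell from 70.4, 72.6 and 77.2 CPM to 26.6, 26 and 24.6 CPM (-1.51 ± 0.069), as did E2F2 (-1.85 ± 0.15), MYBL2 from 113, 106 and 119 CPM to 37.6, 34 and 34.9 CPM (-1.66 ± 0.067), and LIN9, of the complex that drives late cell cycle genes (-1.75 ± 0.12). The inhibitor genes did not move together: CDKN2B, which encodes p15, rose from 2.35, 2.53 and 2.29 CPM to 19.8, 20.4 and 19.6 CPM (3.05 ± 0.16) and CDKN1C, or p57, by 1.03 ± 0.30, CDKN2C, or p18, fell from 42.3, 45.7 and 44.6 CPM to 15.2, 12.9 and 13.4 CPM (-1.68 ± 0.088), and CDKN1A, or p21, was at 300, 301 and 283 CPM and 287, 316 and 332 CPM with an interval of -0.06 to 0.22. CDK6 rose from 0.656, 0.53 and 1.06 CPM to 4.18, 4.7 and 4.26 CPM (2.56 ± 0.28).

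Many DNA repair genes fell too. Of 36 genes of homologous recombination and the Fanconi pathway, 29 fell and 1 rose (median -0.98). BARD1, the partner of BRCA1, fell from 244, 250.2 and 234 CPM to 49.7, 47.6 and 40.03 CPM (-2.4 ± 0.067), as did the nuclease gene EXO1 (-1.97 ± 0.12), BRCA1 (-1.42 ± 0.077) and BRCA2 (-1.44 ± 0.11). The checkpoint kinase gene ATR rose from 56, 57.4 and 55.4 CPM to 83.7, 83 and 69.8 CPM (0.49 ± 0.067). Of 28 genes of mismatch, base excision and end-joining repair, 12 fell and 2 rose (median -0.18). Among 28 p53 targets 20 fell and 3 rose (median -0.37). SESN1, a sestrin, fell from 199.7, 199.6 and 208 CPM to 66.9, 62.7 and 55.8 CPM (-1.71 ± 0.062), as did BTG2 (-1.49 ± 0.076) and DDB2 (-1.4 ± 0.091), whereas GDF15, a stress cytokine, rose from 353, 349 and 387 CPM to 1251, 1209 and 1465 CPM (1.85 ± 0.064) and the death receptor gene TNFRSF10B from 149, 149.8 and 150.1 CPM to 448, 445 and 439 CPM (1.57 ± 0.048). Chromatin modifiers had 30 of 50 lower and 8 higher (median -0.31), with HMGB2 at -1.54 ± 0.062 and the maintenance methyltransferase gene DNMT1 at -0.9 ± 0.052.

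Promoters of 1 mitotic and 1 G1 gene are shown for the motifs searched in them.
CCNB2: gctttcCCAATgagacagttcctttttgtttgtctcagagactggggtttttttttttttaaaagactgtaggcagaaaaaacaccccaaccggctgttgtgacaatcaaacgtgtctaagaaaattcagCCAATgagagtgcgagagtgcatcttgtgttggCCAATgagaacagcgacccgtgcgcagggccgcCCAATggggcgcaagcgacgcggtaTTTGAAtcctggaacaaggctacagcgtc
E2F1: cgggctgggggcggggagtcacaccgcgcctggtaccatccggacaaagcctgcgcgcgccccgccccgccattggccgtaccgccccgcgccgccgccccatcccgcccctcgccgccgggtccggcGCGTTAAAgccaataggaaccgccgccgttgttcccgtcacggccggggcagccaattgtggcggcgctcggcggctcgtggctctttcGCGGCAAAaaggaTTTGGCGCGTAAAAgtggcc
Both are the 250 bases before the RefSeq start on GRCh38.p14, chr15:59104896-59105145 on the plus strand for CCNB2 and chr20:33686386-33686635 on the minus strand for E2F1. Capitals in CCNB2, a mitotic cyclin gene that fell (-1.65 ± 0.12), mark 4 CCAAT boxes and 1 match to the cell cycle homology region, TTTGAA, 29 to 24 bases before the start. Capitals in E2F1 mark matches to TTTNNCGC on either strand, N being any base, and the last pair overlap. TTTGAA was found in 28 of 46 promoter windows of the mitosis list (60.9%), in 2 of 51 windows of the replication list (3.92%) and in 15.2% of all windows, and together with CCAAT in 50% of the mitosis windows and 5.9% of all. The site TTTNNCGC was found in 24 of 51 replication windows (47.1%), in 6 of 46 mitosis windows (13%) and in 6.89% of all. Over windows of genes tested the shares were 10.4% for TTTGAA, 4.17% for TTTGAA with CCAAT and 9.38% for TTTNNCGC. In windows of genes that fell by 2-fold or more they were 16.9%, 8.93% and 10.2%.

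**Figure D3:**
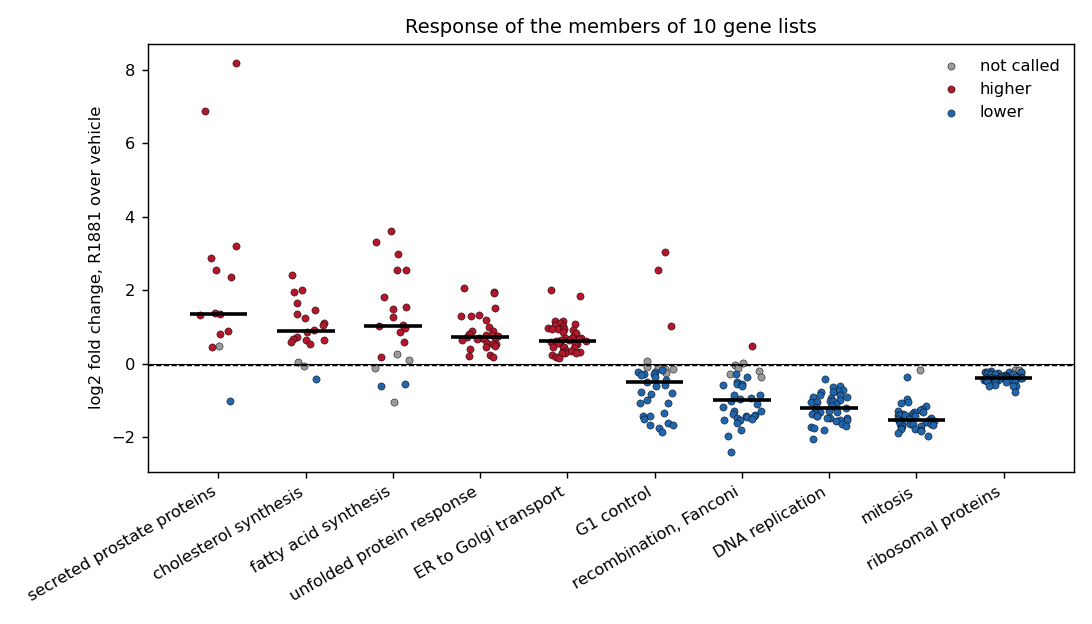
Log2 fold change of R1881 over vehicle for each tested member of 10 gene lists, with colours for the calls, a line at each list's median and a dashed line at the median of all genes tested. The secretory lists lie wholly above 0, replication, mitosis and ribosomal protein genes lie below it, and G1 control holds a few rises among falls.

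Genes of protein synthesis fell by small amounts. Of 53 ribosomal protein genes, 49 fell and 0 rose, with a median of -0.39, and the range over the list was -0.76 for RPS29 to -0.18 for RPL26. RPS29 was not called without vehicle library 1 or 15 or R1881 library 2, at -0.7, -0.64 and -0.59. RPS2 went from 3182, 3110 and 3220 CPM to 1947, 2097 and 2268 CPM (-0.59 ± 0.064) and RPS3 from 1174, 1175 and 1071 CPM to 707, 782 and 778 CPM (-0.59 ± 0.051). Of 32 genes of ribosome assembly, 21 fell and 0 rose (median -0.30), with FBL, the methylase of ribosomal RNA, at -0.89 ± 0.063 and MYC, which controls many of them, from 196, 181 and 214 CPM to 129, 113 and 127 CPM (-0.68 ± 0.058). Of 22 genes of the methylosome and Sm proteins, which serve spliceosome assembly, 14 fell and 2 rose (median -0.36). GEMIN4, of the SMN complex, fell (-0.83 ± 0.062), as did SNRPF (-0.79 ± 0.090), while COPRS, an adaptor of PRMT5, rose by 0.43 ± 0.079. The 20 cytosolic tRNA synthetase genes were mixed, 7 higher and 3 lower, and 3 higher and 10 lower on totals without TMM. Nuclear genes of the respiratory chain leaned down (3 higher and 20 lower of 53, median -0.12), with 1 higher and 37 lower without TMM. Of 15 mitochondrially encoded genes 4 were higher and 0 lower, and 0 higher and 6 lower without TMM. The 20 and 3 of 38 proteasome genes that were higher and lower became 8 and 13 without TMM.

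Metabolic genes outside lipids changed in both directions. In polyamine metabolism SMS, spermine synthase, rose from 106, 115 and 106 CPM to 894, 982 and 922 CPM (3.1 ± 0.053), SAT1, which acetylates polyamines for breakdown, from 116, 119 and 104 CPM to 868, 971 and 896 CPM (3.01 ± 0.059), ODC1, the first enzyme, from 552, 568 and 565 CPM to 2781, 2837 and 2845 CPM (2.33 ± 0.049) and AMD1 from 901, 924 and 897 CPM to 2785, 2664 and 2565 CPM (1.56 ± 0.047). The list as a whole had 8 of 20 higher and 2 lower, and 6 and 8 without TMM. Of 33 genes of one-carbon and serine metabolism 15 fell and 7 rose. PHGDH, which starts serine synthesis, fell from 541, 524 and 542 CPM to 257, 253 and 268 CPM (-1.04 ± 0.049), while GNMT, which consumes S-adenosylmethionine, rose from 8.59, 7.79 and 8.95 CPM to 206, 245 and 234 CPM (4.76 ± 0.087). Of 37 genes of glucose use and hypoxia 23 rose and 8 fell (median 0.35), among them the hypoxia-inducible gene ANKRD37 from 7.27, 5.59 and 6.66 CPM to 54.9, 61 and 56.6 CPM, while the vasodilator peptide gene ADM fell (-3.03 ± 0.57). SORD, sorbitol dehydrogenase, was among the 12 largest gains in CPM, from 503, 498 and 518 CPM to 2599, 2673 and 2652 CPM (2.38 ± 0.048). Of 36 genes listed for the pentose pathway and citrate cycle 17 rose (47.2%) and 8 fell (22.2%), with a median of 0.11. Among all genes tested 24.9% were higher and 26.4% lower. Without TMM 8 of the 36 rose and 16 fell. The pyruvate carrier gene MPC2, GLUD1 and IDH1 rose by 1.93 ± 0.060, 1.6 ± 0.055 and 1.34 ± 0.050.

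Of 33 genes of IGF and PI3K signalling 16 rose and 11 fell, and 12 and 13 did so on totals without TMM. IGF1R, the IGF receptor gene, rose from 23.8, 23.7 and 22.1 CPM to 282, 281 and 272 CPM (3.58 ± 0.070), INPP4B, a lipid phosphatase that restrains AKT, from 9.46, 10.8 and 9.69 CPM to 61.2, 60.6 and 47.3 CPM (2.49 ± 0.11), and MTOR from 108, 109 and 113 CPM to 337, 339 and 340.1 CPM (1.62 ± 0.051). GRB10, an adaptor that dampens these receptors, fell from 594, 575 and 576 CPM to 132, 105 and 109 CPM (-2.33 ± 0.065), and DEPTOR, an mTOR inhibitor, from 19.9, 21.5 and 19.9 CPM to 7.78, 6.71 and 5.37 CPM (-1.62 ± 0.12). Of 21 immediate early genes 14 rose and 2 fell (median 0.70), led by NR4A1 (2.39 ± 0.092), with MYC and KLF10 lower. In WNT signalling 8 of 30 rose and 13 fell: the receptor gene FZD5 rose from 35, 35.3 and 33.9 CPM to 191, 204 and 207 CPM (2.53 ± 0.059) and the receptor gene ROR2 fell from 2.46, 2.61 and 2.77 CPM to 0.058, 0.159 and 0 CPM (-4.97 ± 0.52, and -6.14 without R1881 library 16).

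Keratin, junction and actin genes mostly rose. Of 28 genes of luminal keratins and junctions 20 rose and 2 fell (median 0.45). KRT8 rose from 534, 517 and 505 CPM to 3987, 4339 and 4557 CPM (3.05 ± 0.054), its partner KRT18 from 259, 258 and 259 CPM to 1513, 1571 and 1644 CPM (2.61 ± 0.059) and KRT19 from 3.12, 3.06 and 3.78 CPM to 14.7, 15.4 and 18 CPM (2.28 ± 0.15). OCLN, occludin of tight junctions, fell from 84.7, 88.1 and 82.7 CPM to 47, 47.3 and 41.9 CPM (-0.91 ± 0.069). Of 31 actin and myosin genes 22 rose and 5 fell (median 0.58), with the smooth muscle actin gene ACTA2 at 1.26, 0.898 and 1.12 CPM and 19, 22.1 and 18.5 CPM (4.2 ± 0.20) and CALD1, caldesmon, falling from 1610, 1718 and 1564 CPM to 655, 629 and 562 CPM (-1.41 ± 0.052). Matrix and mesenchymal genes split 13 and 10 of 33, or 12 and 15 without TMM: the repressor gene SNAI2 rose from 0.109, 0.0408 and 0.266 CPM to 8.94, 9.93 and 6.95 CPM (5.98 ± 0.36, and 6.84 without vehicle library 29) and VIM, vimentin, by 1.41 ± 0.21, while FN1, fibronectin, fell from 847, 895 and 838 CPM to 257, 212 and 235 CPM (-1.87 ± 0.054), COL5A2 from 45.2, 49.7 and 47 CPM to 3.42, 2.06 and 2.03 CPM (-4.23 ± 0.13) and the metalloprotease gene MMP16 from 225, 232 and 211 CPM to 23.4, 15.7 and 15.5 CPM (-3.61 ± 0.13). The stromal markers summed to 24.2 to 24.7 CPM with vehicle and 32.3 to 35.8 CPM with R1881, with COL1A2, FAP and DES at 0. ACTA2 made up the rise of this sum: COL3A1, a fibrillar collagen gene, was at a mean of 6.65 CPM with vehicle and 0.773 CPM with R1881, COL1A1 at 15.8 and 13.5 CPM, and LUM, lumican, had 27 counts over the vehicle libraries and 0 over the R1881 libraries. Among ion transport genes, the sodium pump subunit gene ATP1B1 fell from 305, 299.9 and 317 CPM to 55, 51.4 and 47.4 CPM (-2.58 ± 0.059).

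**Figure D4:**
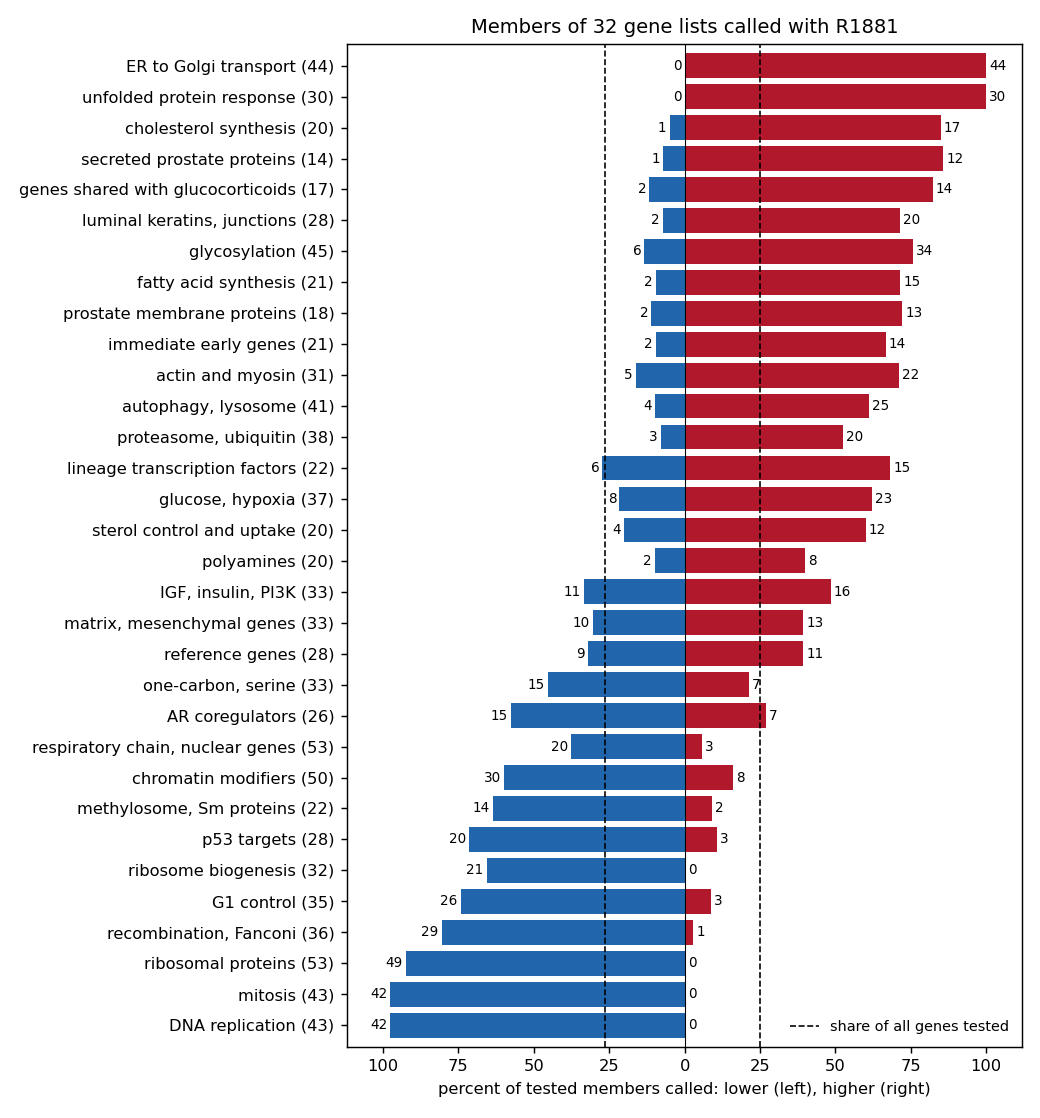
Percent of the tested members of 32 gene lists called higher (right, red) or lower (left, blue) with R1881, with counts at the bar ends, the number tested in brackets and dashed lines at the shares of all genes tested (24.9% and 26.4%). ER to Golgi transport and the unfolded protein response stand at 100% higher, and DNA replication and mitosis at 42 of 43 lower.

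Not all genes used to normalise other assays were flat. Of 28 common reference genes 11 rose (39.3%) and 9 fell (32.1%), where 24.9% of all genes tested were higher and 26.4% lower. Their median was 0.01, 8 were not called and 1 changed by 2-fold or more. Without TMM 9 rose and 16 fell. B2M went from 157, 162 and 158 CPM to 432, 452 and 452 CPM (1.49 ± 0.057), ACTB from 1915, 1874 and 2018 CPM to 3394, 3353 and 3623 CPM (0.84 ± 0.048), GAPDH from 2375, 2370 and 2434 CPM to 1848, 1875 and 1966 CPM (-0.34 ± 0.046) and HPRT1 from 42.9, 45.3 and 48.8 CPM to 33.4, 31.7 and 31.4 CPM (-0.51 ± 0.074).

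Some changed genes lay side by side, though how many such runs the order of genes alone would give was not tested. The longest run held 11 genes, all higher, on chromosome 2 between 130356007 and 130718831. It includes related copies, POTEI and POTEJ, FAR2P2 and FAR2P3, and KLF2P2 and KLF2P3. Such copies may share reads, so the 11 genes may not be independent. On chromosome 6, 9 neighbouring tested genes of a histone cluster between 26114873 and 26202654 (GENCODE 29, GRCh38) were all higher, among them H1-4, from 1.7, 1.22 and 1.01 CPM to 7.14, 11.2 and 9.89 CPM (2.85 ± 0.23), and H2BC5, from 7.98, 9.63 and 6.6 CPM to 30.9, 31.2 and 28.6 CPM. These libraries were selected for poly(A) tails, which most replication histone messages lack. H2AX, which makes a polyadenylated message as well, fell from 302, 282 and 329 CPM to 109.6, 107 and 119 CPM (-1.44 ± 0.069). On chromosome 3, 7 neighbours between 164978898 and 167381346 were all lower, with SI, SLITRK3 and BCHE among them. On chromosome 12, 7 neighbours between 52022832 and 52192000 were all higher, from NR4A1 to KRT80, and include OR7E47P and RP1-288H2.2. RP1-288H2.2 lies within the span of OR7E47P, which the gene SMIM41 of the same run also overlaps, so these neighbours may share reads.

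The response was also set against that of LNCaP cells given a control siRNA in the second study, where the transfected agent and the study cannot be told apart. Across 18999 genes the log2 fold changes of the arms correlated at r = 0.77, a description over genes that are not independent. In this fit 8968 genes were called with the empty vector and 9592 with the control siRNA. Of these, 6370 were called in the same direction in both, 71.0% of the first set and 66.4% of the second, and 213 in opposite directions. The difference of the responses was called for 3185 genes (16.8%), the empty-vector response being more positive for 1148 (6.04%) and more negative for 2037 (10.7%). Vehicle library 35 of the siRNA arm stood apart, with KLK3 at 53.5 CPM against 207.6 and 206.8 CPM in the other 2, and without it 2482 genes were called, 1177 more positive and 1305 more negative.

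The arms differed in vehicle level as well as in response. On the scale of all 24 libraries, with vehicle, KLK3 was at 1322 ± 58.1 CPM (SD, n = 3) in the empty-vector arm and 156.0 ± 88.8 CPM in the siRNA arm, and with R1881 at 6762 ± 386.5 and 7974 ± 190.8 CPM. The empty-vector response was smaller by 3.32 on the log2 scale (difference -3.32 ± 0.46, adjusted p = 8.33e-05), and the difference was -2.86 without library 35. TMPRSS2 showed the same order, at 330.1 ± 8.66 against 157.2 ± 24.1 CPM with vehicle and 2888 ± 94.2 against 3234 ± 316.6 CPM with R1881 (difference -1.23 ± 0.12, adjusted p = 7.76e-08). The difference of FKBP5 was -1.01. GBP2, an interferon-inducible GTPase, differed in the other direction (2.5, and 2.16 without library 35), at 2.31 ± 0.33 CPM with vehicle and 12.2 ± 0.82 CPM with R1881 in the empty-vector arm and 8.41 ± 3.50 and 7.79 ± 0.28 CPM in the siRNA arm. CDKN2B differed by 2.45 ± 0.31, with 9.89 CPM in vehicle library 35 against 4.49 and 4.34 CPM in the other 2, and by 2.0 without that library.

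For ribosomal proteins the empty-vector response was more negative for 41 of 53 genes, where 10.7% of all genes tested were more negative, and more positive for 0, with medians of -0.40 and -0.02 in the empty-vector and siRNA arms, and the count was 41 again without library 35. Ribosome assembly was more negative for 25 of 32 (medians -0.32 and 0.21), 21 without library 35, and tRNA synthetases for 16 of 20, 14 without it. DNA replication was more negative for 26 of 43 (medians -1.22 and -0.53), 25 without library 35, and mitosis for 2 of 43, 1 without it (medians -1.56 and -1.02). The medians of each arm given here include library 35. Without it the median of the differences went from -0.464 to -0.129 for mitosis and from -0.619 to -0.415 for replication. For ribosomal proteins it was -0.352 with library 35 and -0.369 without it. The unfolded protein response genes were more negative for 15 of 30 and more positive for 1 (medians 0.72 and 1.12), 13 without library 35, and the transport genes for 18 of 44 (medians 0.62 and 0.88), 10 without it. Amino acid stress genes were more negative for 15 of 25 and heat shock genes for 16 of 26, which became 17 and 8 without library 35. In the mitochondrially encoded list no difference was called, and 2 of 15 were more negative without library 35. Fatty acid synthesis differed in both directions, 5 genes each way of 21.

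**Figure D5:**
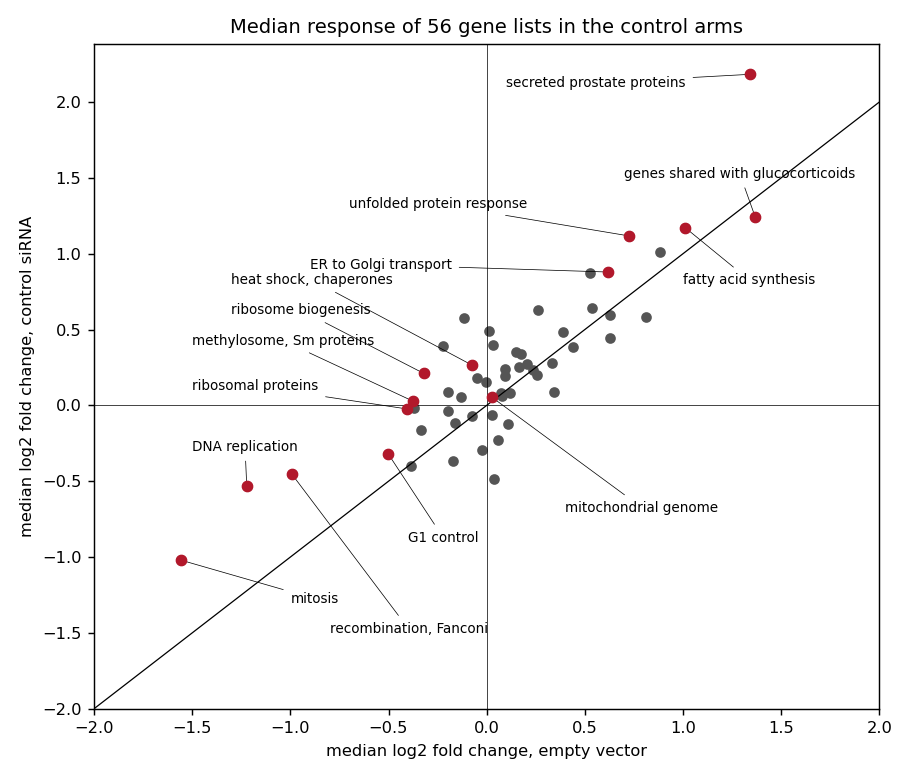
Median log2 fold change of R1881 over vehicle for 56 gene lists in the empty-vector arm (x axis) and the control siRNA arm (y axis), with the line of equality and 14 lists named in red. Mitosis and DNA replication lie lowest in both arms, the secreted prostate proteins lie above the line, as do the ribosomal, methylosome and heat shock lists.

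Within the first study the response was set against that of cells carrying the WDR77-peptide 3 construct, 3 R1881 and 3 vehicle libraries. The difference was called for 4013 of 17772 genes (22.6%), more positive with the empty vector for 1971 (11.1%) and more negative for 2042 (11.5%). KLK3 rose by 2.37 with the empty vector and 1.17 with the construct (difference 1.2 ± 0.067), FKBP5 by 5.07 and 3.53 (difference 1.54 ± 0.071) and TMPRSS2 by 3.15 and 1.62 (difference 1.53 ± 0.065). UGT2B17 had values of -4.88 and -1.22 (difference -3.66 ± 0.33). WDR77 had a log2 fold change of 0.04 with the empty vector and 0.74 with the construct, a difference of -0.71 ± 0.096. Whether reads from the construct were counted to WDR77 in that arm was not tested.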

How the data were processed

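The members of the comparison and the gene lists were chosen with earlier results of these data known. Raw counts per gene were deposited by the authors for 60649 features. Base calls were converted with bcl2fastq 2.20, alignment to GRCh38.p7 used STAR 2.7.9a, and counting used featureCounts from the Subread 1.6.4 package, per the submitters' processing notes. Whether strand was used, how multiply mapped reads were treated, and the annotation release were not given in the sources. Genes that overlap another gene or have near-identical copies are therefore uncertain: 35 of 1556 examined genes share 50% or more of their exon bases with another gene. Symbols and coordinates come from GENCODE 29, which holds 58337 of the features.

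Counts were analysed in R 4.3.3 with edgeR 4.0.16 (limma 3.58.1): filterByExpr by group, TMM scaling, and the robust quasi-likelihood F test with 1 coefficient per group over the 12 libraries of the first study, so that all 4 of its groups share the estimate of spread. The comparison with the control siRNA used an interaction contrast over all 24 libraries, and that with the WDR77-peptide 3 construct one over the 12. Standard errors were derived from the fold change and its F statistic, and intervals are 95%. P-values were adjusted by Benjamini-Hochberg over all genes tested, and 0.05 was the threshold. A fold against a group at 0 was computed against 3 counts over the summed scaled library sizes of the group. In a single library 3 counts are 0.1237 to 0.177 CPM, a level that was not used for these folds. Intervals given with ratios of counts cover counting error only. Alternatives were DESeq2 1.42.0, other scalings and filters, other sets of libraries, a test against a log2 fold change of 0.5, and each library left out, with plain library totals added after seeing the data. The scripts were tested on simulated counts.

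The text names known androgen-responsive genes and WDR77, the 12 called genes per direction with the largest fold change at 5 CPM or more without overlap, the 12 with the largest gain or loss in CPM, up to 5 called members per direction of each list, up to 8 genes per direction for each difference of responses, and marker and reference genes. HSPA5, XBP1, ATF6, MKI67, E2F1, CCNB2, SCD, BRCA1, BRCA2, VIM, FOXA1, HOXB13, PCNA, CDKN1A, GINS3, RNASEH2A, NUSAP1, RPL26, BCHE and KRT80 fall outside that rule and were chosen with their values known. Results of some genes that the rule names are not reported here. Promoter windows ran from 250 bases before to 50 after each RefSeq start (GRCh38.p14), and 11366 of the tested genes had 1.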

Additional observations from a re-analysis of the deposited data

Results flagged for a closer look

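The response in empty-vector cells differed from that in control siRNA cells, by the test of the difference itself, for 3185 genes, and from that in cells with the WDR77-peptide 3 construct for 4013 genes. The type of transfection and the study cannot be told apart in the first of these.

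Against the control siRNA, the empty-vector response was more positive by 3.18 on the log2 scale for HOXA11-AS, 2.55 for LRRC37A4P, 2.5 for GBP2, 2.45 for CDKN2B, 2.43 for AOC1, 2.2 for GBP3, 2.19 for ATP8B3 and 2.09 for VSIG10L. It was more negative for KLK3 (-3.32), KLK2 (-3.21), KRT14 (-3.12), ADAM7 (-2.49), CHRNA2 (-2.47), AZGP1P1 (-2.45), GLP1R (-2.32) and LINC01297 (-2.29). For the other genes examined in every comparison the differences were -1.23 for TMPRSS2, -1.01 for FKBP5 and -0.53 for WDR77. Without vehicle library 35 of the siRNA arm the differences were -2.86 for KLK3, -2.74 for KLK2 and 2.16 for GBP2. The difference of LRRC37A4P was not called without vehicle library 1, 15 or 29 or R1881 library 2 or 16 of the empty-vector arm, nor without vehicle library 7 or 35 or R1881 library 22 or 36 of the siRNA arm. It ranged over these from 1.81 (adjusted p = 0.19, edgeR), without R1881 library 2, to 2.8 (adjusted p = 0.0508, edgeR), without vehicle library 29. That of ADAM7 was -3.21 without vehicle library 21 of the siRNA arm.

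Against the WDR77-peptide 3 construct, the difference was 2.03 for KLK2, 1.54 for FKBP5, 1.53 for TMPRSS2, 1.2 for KLK3 and -0.71 for WDR77. The WDR77 counts of that arm may include reads from the construct, which was not tested.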

How the results depend on the processing

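The count of 9130 called genes was 8889 to 10021 under RLE size factors, library totals without TMM, no filter on low counts, DESeq2, the 6 libraries alone, all 24 libraries and a replicate block, and 8344 to 8798 with a library left out; no gene called both in the reported fit and in one of these turned its sign. Against a log2 fold change of 0.5, 3341 genes were called, 1715 higher and 1626 lower. Deviations from the group means correlated at -0.008 for libraries 1 and 2, 0.017 for 15 and 16, and 0.034 for 29 and 30. Other vehicle and R1881 pairs lay between -0.034 and 0.018. Correlations over all genes cannot show whether libraries were paired, and no pairing was used in the reported fit. The block, by runs of sample numbers, gave 9525 calls, 3379 for the difference from the control siRNA and 4641 for that from the construct. With a library left out these differences had 2482 to 3333 and 3506 to 4045 calls. On library totals without TMM, 30.8% of calls were higher, against 48.5%, and the sign reversed for WDR77 (-0.13), YARS1 (-0.0132), MT-CYB (-0.0165), UQCRC2 (-0.0412), FOXA1 (-0.0265) and CDKN1A (-0.09). WDR77 ranged from -0.0026 without R1881 library 30 to 0.11 without vehicle library 29. Of 1612 recomputed list counts 72 moved by more than 1.5 times, and of 6343 recomputed values of named genes 130 lost their call. The cause was not tested. Depth limits genes under 1 CPM most, where 10.2% were higher and 12% lower.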
